A study of Mus musculus with 2 samples.

Results

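Matrix metalloproteinases are zinc-dependent endopeptidases that cut collagens, elastin, gelatin and other proteins outside the cell, and tissue inhibitors of metalloproteinases (TIMPs) block them by filling the active site. Described here are 8 genes of the family: Mmp9, Mmp12, Mmp13, Mmp14, Mmp19, Timp1, Timp2 and Timp3. They were chosen by name, with earlier results of these data known, so shares set beside those of all genes are only a description. Each was found in the gene lists of both libraries, which hold 32285 genes. In bone, osteoclasts secrete proteases of this family at the zone of resorption, and MMP9 and MMP14 take part in migration and matrix removal by these cells. TIMPs come mostly from connective tissue cells. Of them TIMP2 has a further role, since together with MMP14 it forms the complex that activates pro-MMP2.

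The labels give the marrow of each library as that of a wild-type male C57BL/6J mouse, 3 months old, and do not say whether both libraries share the animal. It was cultured towards osteoclasts with an inflammatory cytokine added. The 2 groups are cells given 1 nM of the androgen 5α-dihydrotestosterone (DHT) and cells given ethanol alone (Vehicle). Medium stripped of hormones was used for both groups. During the first 48 h it held M-CSF, on which macrophages and their precursors depend, at 5 ng/mL. Both then had 24 h with 100 ng/mL M-CSF, 30 ng/mL of the osteoclast-inducing cytokine RANKL and 10 ng/mL human TNF, in DHT or ethanol as before. Adherent cells went into 1 droplet library per group, and counts are unique molecular identifiers (UMIs) read at the 3′ end of transcripts. With 1 library in each group, none of the differences has a replicate check or was tested. Intervals are 95% and cover counting error only.

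After filtering, 7708 DHT cells held 296659811 UMIs and 8590 Vehicle cells held 430858831, with medians of 30133 and 50833.5 UMIs per cell. The libraries shared 18 of these cell barcodes. The labels call the cells osteoclast precursors, but the clusters named by marker genes covered a wider range. Osteoclast-like cells were 28.2% of DHT cells and 51.7% of Vehicle cells, and neutrophil-like cells 22.3% and 11.6%, beside 1002 DHT and 1386 Vehicle macrophage-like cells. Monocyte-like, granulocyte-monocyte progenitor-like (GMP in the plots), conventional dendritic cell-like (cDC) and B cell-like classes followed, with a class of 25 DHT and 12 Vehicle mesenchymal stromal-like cells and an unnamed cluster of few UMIs. When leading genes were scored against all other cells, osteoclast-like clusters 1, 6 and 8 stayed unnamed and the name was left to cluster 11, with 330 DHT cells (4.28%) and 715 Vehicle cells (8.32%), so the class size and its share of UMIs depend on the naming. Metalloproteinase and TIMP genes took no part in clustering and were not markers. They could still take a place among the 10 leading genes used for naming, as Timp1 did in the stromal-like cluster. A level is given in CPM, the gene's UMIs per 1000000 summed UMIs of a library or class. Levels describe 1 gene across cells, and different genes are not ranked against each other.

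Mmp12 and Mmp13 lie next to each other in the metalloproteinase cluster of chromosome 9, with 61049 bases between them (GRCm38, GENCODE M21). Their promoters are shown, with that of Mmp14, because the pair went in opposite directions in macrophage-like cells while Mmp14 went with Mmp9. The direction of Mmp13 there rests on low levels, 10.8 CPM with DHT and 2.54 CPM with Vehicle. Mmp12 has a pair of listed starts. The sequences are those of RefSeq on GRCm38.p6 and run from 250 bases before the start through 50 bases from it. Capitals mark matches to TGANTCA, the site of AP-1 factors, to TATAAA, the TATA box, and to GGGCGG, the GC box. Both strands were searched.
Mmp13, chr9:7272264-7272563, plus strand: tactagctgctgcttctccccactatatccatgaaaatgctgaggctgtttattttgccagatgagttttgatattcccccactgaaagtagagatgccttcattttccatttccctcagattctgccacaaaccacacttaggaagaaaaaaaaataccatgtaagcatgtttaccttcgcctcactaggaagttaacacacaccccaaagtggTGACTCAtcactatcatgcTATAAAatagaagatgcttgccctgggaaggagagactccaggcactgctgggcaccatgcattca
Mmp12 upstream start, chr9:7344147-7344446, plus strand: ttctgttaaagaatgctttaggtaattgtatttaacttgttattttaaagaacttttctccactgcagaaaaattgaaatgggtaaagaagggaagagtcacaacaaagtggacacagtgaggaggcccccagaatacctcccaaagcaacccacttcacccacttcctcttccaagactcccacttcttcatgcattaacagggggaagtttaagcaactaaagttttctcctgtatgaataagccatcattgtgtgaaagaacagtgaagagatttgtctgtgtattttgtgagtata
Mmp12 downstream start, chr9:7347124-7347423, plus strand: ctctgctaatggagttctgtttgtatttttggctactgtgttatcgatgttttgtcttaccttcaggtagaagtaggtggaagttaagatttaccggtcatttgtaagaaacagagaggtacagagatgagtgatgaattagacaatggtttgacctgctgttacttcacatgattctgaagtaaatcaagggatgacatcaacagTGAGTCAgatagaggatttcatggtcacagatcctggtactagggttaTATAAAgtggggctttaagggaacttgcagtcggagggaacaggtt
Mmp14, chr14:54431348-54431647, plus strand: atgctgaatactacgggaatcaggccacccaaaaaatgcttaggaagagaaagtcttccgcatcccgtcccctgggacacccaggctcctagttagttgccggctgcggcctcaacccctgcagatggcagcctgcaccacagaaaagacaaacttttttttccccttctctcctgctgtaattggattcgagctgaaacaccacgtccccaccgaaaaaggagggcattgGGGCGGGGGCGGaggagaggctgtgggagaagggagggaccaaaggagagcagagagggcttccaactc
Positions count from 1 at the first transcribed base, with negative values before it. Mmp13 held the AP-1 match at -35 and a TATAAA at -16. The downstream start of Mmp12 held the AP-1 match at -44 and a TATAAA at 5, and its upstream start held none of the 3 motifs. Mmp14 held a GC box at -19 and another at -13, and no match to the other motifs. Of 32851 RefSeq promoters of this length, 7.81% held TGANTCA, 13.6% held TATAAA and 35.7% held GGGCGG. The promoter table has entries for 6 of the 8 genes. Those of Timp1, Timp2 and Timp3 each held a GC box and neither of the other motifs. Mmp9 and Mmp19 have no entry.

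Over all cells, 5 of the 8 genes reached 20 CPM in 1 or both libraries. Of these, 2 were at least 1.5-fold higher in the DHT library (Mmp9 and Timp1) and 1 at least 1.5-fold lower (Mmp12). Among all 6735 genes at that level, 5.48% were as much higher and 0.178% as much lower. The median log2 ratio of the 5 genes was 0.36, against -0.02 over all genes. A level over all cells depends on both the level within each class and the share of each class, so the classes are taken in turn below.

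**Figure D1:**
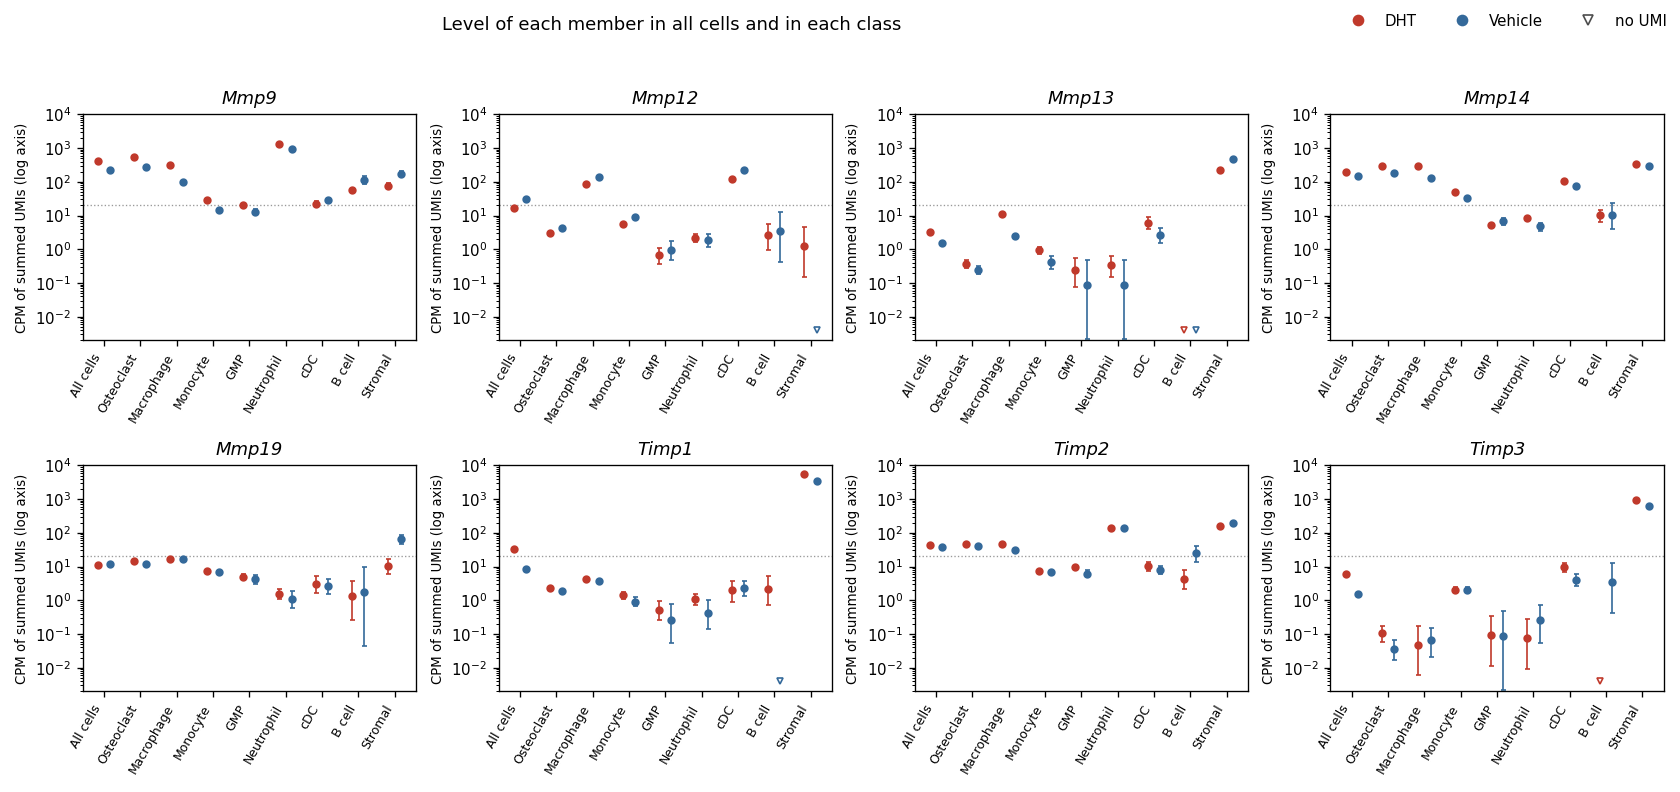
Level of each gene (CPM of summed UMIs, log axis) in all cells and in each class, DHT in red left of Vehicle in blue, with 95% Poisson intervals. Triangles mark classes with no UMI, placed at the foot of the axis, where a few long intervals are cut off, and the dotted line is 20 CPM. Timp1 and Timp3 stand highest in stromal-like cells, Mmp12 in macrophage-like and dendritic cell-like cells, and Mmp9 in neutrophil-like cells.

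Mmp9 encodes gelatinase B, a secreted protease that cuts denatured collagen and type IV collagen and that osteoclasts and neutrophils both make in quantity. Its gene lies on chromosome 2 from 164940780 to 164955850, plus strand (GRCm38, ENSMUSG00000017737). Over all cells it stood at 410 CPM in the DHT library (407 to 412) and 225 CPM in the Vehicle library (224 to 226), a ratio of 1.82 (1.81 to 1.84). It ranked 233 from the top of the 6735 genes by that ratio. Osteoclast-like cells held 57.8% of its UMIs in the DHT library and 79.0% in the Vehicle library, and neutrophil-like cells held 28.5% and 11.9%.

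Within osteoclast-like cells, 3 of the 8 genes reached 20 CPM and 2 were at least 1.5-fold higher with DHT, Mmp9 and Mmp14, with none as much lower. The background in this class was 1.13% higher and 0.0618% lower of 6470 genes, and the median log2 ratio was 0.66 for the 3 genes and 0.05 for all. Mmp9 was at 530 CPM in DHT cells and 280 CPM in Vehicle cells, a ratio of 1.89 (1.87 to 1.91), which ranked it 46 of 6470. The median osteoclast-like cell had 289 CPM of Mmp9 in the DHT library and 85.5 CPM in the Vehicle library. Each of the 4 clusters of the class gave a higher level in the DHT library. Cluster 11, with Ctsk and Acp5, genes of the mature osteoclast, among its leading genes, had 930 and 603 CPM in DHT and Vehicle cells (ratio 1.54). In DHT and Vehicle cells, cluster 1 had 347 and 182 CPM (ratio 1.90), cluster 6 had 541 and 249 CPM (ratio 2.17) and cluster 8 had 476 and 222 CPM (ratio 2.14).

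The level of Mmp9 followed the level of osteoclast markers within the class. Osteoclast-like cells of both libraries were put into 5 bins of equal size by the summed CPM of 12 osteoclast markers. In the lowest bin Mmp9 was at 179 CPM in DHT cells and 64.2 CPM in Vehicle cells, a ratio of 2.79. In the highest bin it was at 981 and 658 CPM, a ratio of 1.49, and the 3 bins between gave 1.86, 1.78 and 1.77. So the level was higher with DHT at each marker level, and the ratio was largest where markers were lowest. DHT cells lay more in the upper bins, with 506 of 2171 in the highest and 371 in the lowest, against 817 and 952 of 4443 Vehicle cells.

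Macrophage-like cells showed the largest Mmp9 ratio among the 7 classes compared. Here 4 of the 8 genes reached 20 CPM, 3 were at least 1.5-fold higher with DHT (Mmp9, Mmp14 and Timp2) and 1 at least 1.5-fold lower (Mmp12). Of 6632 genes in the class, 3.78% were as much higher and 1.30% as much lower, and the median log2 ratio was 0.89 for the 4 genes and 0.00 for all. Mmp9 was at 316 CPM in DHT cells (311 to 321) and 96.7 CPM in Vehicle cells (94.5 to 98.9), a ratio of 3.27 (3.17 to 3.36) and rank 64. The median cell had 164 CPM in the DHT library and 21.6 CPM in the Vehicle library. Beside this, the class differed in depth (medians of 37806 and 53985 UMIs per DHT and Vehicle cell) and in the summed level of its 10 defining markers (2330 and 1240 CPM). The part of those differences in the Mmp9 result was not tested.

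Finer clustering split the macrophage-like class into 3 groups of over 100 cells in each library. The largest, finer cluster 3, held 72.3% of DHT and 44.3% of Vehicle macrophage-like cells and had C1qa and Ms4a7, macrophage genes, among its leading genes. Mmp9 there was at 387 and 132 CPM in DHT and Vehicle cells, a ratio of 2.94. In finer cluster 12 it was at 178 and 75.7 CPM (ratio 2.35) and in finer cluster 16 at 204 and 72.1 CPM (ratio 2.83). The level was thus higher with DHT in each of the 3. C1qa moved with it inside these clusters, with a ratio of 2.23 in finer cluster 3 and 1.64 in finer cluster 16. In finer cluster 12 C1qa was at 42.3 CPM in DHT and 16.9 CPM in Vehicle cells. Ms4a7 had ratios of 1.84, 1.11 (0.990 to 1.25) and 1.25 in finer clusters 3, 12 and 16. The proliferation gene Mki67 was at 87.8 CPM in DHT and 169 CPM in Vehicle cells of finer cluster 3. Its ratios in finer clusters 12 and 16 were nearer 1, at 0.875 and 0.958. The libraries thus differed in C1qa inside each cluster, and in Ms4a7 and Mki67 most in finer cluster 3. The part of that in the Mmp9 result was not tested. Weighting the finer clusters of the DHT library to Vehicle shares, a setting chosen after seeing the data, gave a class ratio of 2.75.

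Neutrophil markers were measured beside Mmp9 in the other classes. The 9 neutrophil markers, led by S100a8 and S100a9, summed to 1430 and 466 CPM in DHT and Vehicle macrophage-like cells and 1090 and 464 CPM in osteoclast-like cells, with all 9 detected. In neutrophil-like cells they summed to 343000 and 353000 CPM. At the ratio of Mmp9 to these markers in neutrophil-like cells, that RNA would bring 5.45 and 1.29 CPM of Mmp9 to macrophage-like cells and 4.18 and 1.28 CPM to osteoclast-like cells. This reckoning assumes the RNA profile of neutrophil-like cells, and the part of such RNA in the Mmp9 difference was not tested. In monocyte-like cells the same reckoning gave 18.9 and 7.60 CPM of the 28.2 and 14.4 CPM measured.

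Shares of positive cells were compared after each cell was thinned to 4719 UMIs, which left out 1060 DHT and 570 Vehicle cells. Mmp9 then had a UMI in 63.3% of DHT and 44.1% of Vehicle osteoclast-like cells, and in 54.7% (51.5 to 57.9) and 21.1% (18.9 to 23.3) of macrophage-like cells. Without thinning, the osteoclast-like shares were 94.0% and 82.9% and the macrophage-like shares 87.4% and 67.0%. B cell-like cells, which should lack the gene, gave 15.5% of 291 DHT and 11.8% of 51 Vehicle cells after thinning. Before thinning the class had 341 DHT and 117 Vehicle cells, at median depths of 6284 and 4584 UMIs, so most Vehicle cells were left out. Monocyte-like cells, at 10.4% and 5.74%, and progenitor-like cells, at 6.74% and 6.28%, lay under that background share. Their Mmp9 is therefore not read as expression, though its absence is not shown. The background share is a rough mark, since its Vehicle value rests on 51 cells. B cell-like cells also held neutrophil marker RNA, 2550 CPM in DHT and 13000 CPM in Vehicle cells. In counts the class ratios were 1.96 for monocyte-like and 1.65 for progenitor-like cells.

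**Figure D2:**
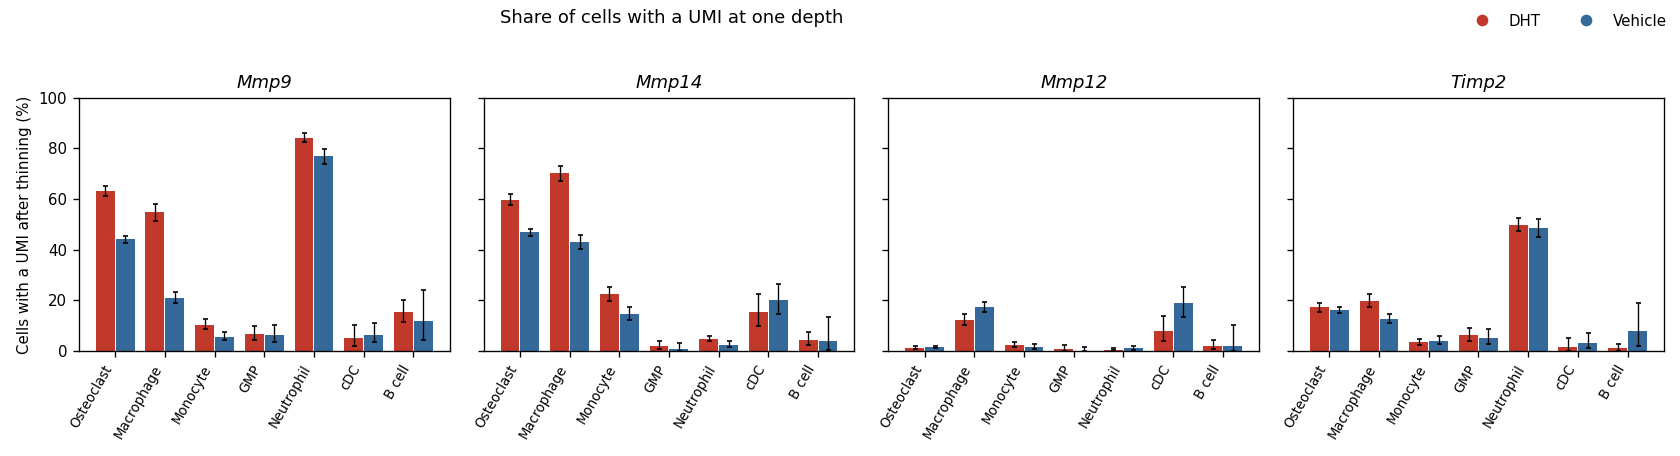
Share of cells with at least 1 UMI of Mmp9, Mmp14, Mmp12 and Timp2 by class after thinning to 4719 UMIs per cell, DHT in red left of Vehicle in blue, with 95% Clopper-Pearson intervals. In macrophage-like cells the Mmp9 bars stand at 54.7% and 21.1% and the Mmp12 bars at 12.3% and 17.4%.

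Neutrophil-like cells had the highest Mmp9 level of the 7 classes, 1310 CPM in DHT cells and 975 CPM in Vehicle cells, a ratio of 1.35 (1.32 to 1.37). In neutrophils MMP9 is packed late in maturation into granules. Cluster 10, with Cxcr2 and Il1b among its leading genes as in mature neutrophils, had 2490 and 2060 CPM in DHT and Vehicle cells, and cluster 0 had 1710 and 1300 CPM. Cluster 14, led by the secondary granule genes Camp and Ngp, had 94.4 and 41.0 CPM. Of the 8 genes, 2 reached 20 CPM in this class (Mmp9 and Timp2) and 0 passed 1.5-fold in either direction, against 2.21% higher and 0.313% lower of 5107 genes.

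Mmp14 encodes a collagenase held in the plasma membrane, which also activates other pro-MMPs (chromosome 14, 54431612 to 54445364, plus strand, ENSMUSG00000000957). Over all cells it was at 192 CPM in the DHT library and 150 CPM in the Vehicle library, a ratio of 1.28 (1.27 to 1.30), under the 1.5-fold mark. Within classes the ratio was wider. Osteoclast-like cells had 300 CPM with DHT and 189 CPM with Vehicle (ratio 1.58, 1.56 to 1.60), macrophage-like cells 293 and 130 CPM (ratio 2.25, 2.19 to 2.31) and monocyte-like cells 50.6 and 33.2 CPM (ratio 1.52, 1.43 to 1.62). The DHT library had a smaller share of the osteoclast-like cells that held 69.8% of its Mmp14 UMIs and 80.3% of those of the Vehicle library. With the clusters of the DHT library weighted to Vehicle shares, the ratio over all cells was 1.66.

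The osteoclast-like clusters 6, 8 and 11 gave Mmp14 ratios of 1.62, 1.65 and 1.53, and cluster 1 gave 1.47 (204 CPM in DHT and 139 CPM in Vehicle cells). Over the 5 bins of osteoclast marker level the ratio ran from 1.39 to 1.56, with levels of 116 and 74.4 CPM in DHT and Vehicle cells of the lowest bin and 509 and 356 CPM in the highest. Mmp14 thus followed the osteoclast markers as Mmp9 did, with a narrower range of ratios. When the bins were weighted to Vehicle shares the class ratio was 1.44, under the 1.5-fold mark. In the 3 finer macrophage-like clusters the ratios were 2.07, 1.87 and 1.60. After thinning, 70.2% of DHT and 43.0% of Vehicle macrophage-like cells had a UMI, and 59.7% and 46.8% of osteoclast-like cells, over a B cell-like background of 4.47% and 3.92%.

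**Figure D3:**
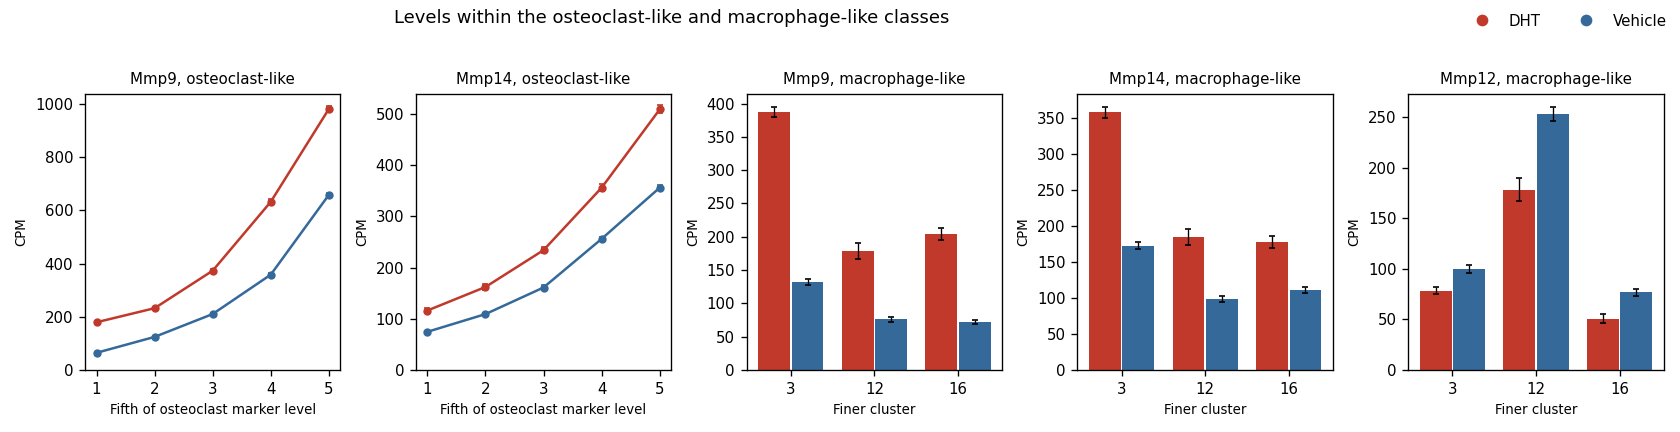
Levels (CPM) within classes. The left pair of panels plots Mmp9 and Mmp14 in 5 bins of osteoclast marker level, and the 3 right panels plot Mmp9, Mmp14 and Mmp12 in the finer macrophage-like clusters 3, 12 and 16. DHT is red and, in the bars, left of Vehicle in blue, with 95% Poisson intervals; DHT lies above Vehicle for Mmp9 and Mmp14 throughout and below it for Mmp12.

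In monocyte-like cells Mmp9 and Mmp14 were the 2 genes that reached 20 CPM and both were at least 1.5-fold higher with DHT, against 1.63% higher and 0.188% lower of 6384 genes. The Mmp9 count there lies at the background described above and is not read as expression. The Mmp14 ratio was 1.57 in monocyte-like cluster 3 (81.2 CPM in DHT and 51.9 CPM in Vehicle cells). In cluster 5 it was 0.960 (0.832 to 1.11), from 419 DHT and 363 Vehicle UMIs. That interval includes 1 and both levels lay under 20 CPM, so no direction is read in cluster 5. The progenitor-like class had 1 gene at 20 CPM, Mmp9, past 1.5-fold at 21.2 CPM in DHT and 12.9 CPM in Vehicle cells, likewise under the background share and not read as expression. Its background was 0.848% higher and 0.326% lower of 6129 genes. Mmp14 was at 5.12 and 6.72 CPM there and at 8.34 and 4.75 CPM in neutrophil-like cells, low in both libraries.

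Mmp12 encodes macrophage elastase, which cuts elastin (chromosome 9, 7344381 to 7369499, plus strand, ENSMUSG00000049723). It went the other way. Over all cells it was at 16.8 CPM in the DHT library (16.3 to 17.2) and 31.9 CPM in the Vehicle library (31.4 to 32.4), a ratio of 0.526 (0.509 to 0.543). By that ratio it ranked 3 from the bottom of 6735 genes. Macrophage-like cells held 68.9% of its UMIs in the DHT library and 75.5% in the Vehicle library, and dendritic cell-like cells held 11.4% in each.

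Within macrophage-like cells Mmp12 was at 83.7 CPM with DHT (80.9 to 86.5) and 137 CPM with Vehicle (134 to 139), a ratio of 0.612 (0.588 to 0.636). The transcript was unevenly spread among cells: 223 of 1002 DHT and 541 of 1386 Vehicle cells had a UMI, and the richest cells held 294 and 401 UMIs. The 10 richest cells held 39.0% of the UMIs in the DHT library and 25.4% in the Vehicle library. Mmp12 was the leading gene of finer cluster 12 as a whole, 246 DHT and 634 Vehicle cells, though it took no part in clustering. Of these cells 108 and 360 lay in the macrophage-like class and made up 10.8% and 26.0% of it. They had 178 CPM in DHT and 253 CPM in Vehicle cells (ratio 0.704). Finer clusters 3 and 16 had ratios of 0.785 and 0.662, so each of the 3 was lower with DHT but only 1 by as much as 1.5-fold. Weighting them to Vehicle shares gave 0.701, short of the 1.5-fold mark, as did 2 other settings given in the closing section.

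Mmp9 was also compared between cells with and without Mmp12. After thinning, 54.2% of 120 Mmp12-positive DHT macrophage-like cells had a UMI of Mmp9, and 54.8% of 852 Mmp12-negative ones. In the Vehicle library it was 40 of 239 Mmp12-positive and 250 of 1138 Mmp12-negative cells. The DHT share was the higher one in both kinds of cell, and within each library the Mmp9 intervals of the 2 kinds overlapped, which is no test. For Mmp14 the Vehicle shares were 54.4% (47.8 to 60.8) with Mmp12 and 40.6% (37.7 to 43.5) without it. The DHT shares of Mmp14 were 74.2% (65.4 to 81.7) and 69.6% (66.4 to 72.7). For Timp2 the intervals overlapped in both libraries.

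Dendritic cell-like cells had 124 CPM of Mmp12 with DHT and 232 CPM with Vehicle, a ratio of 0.533 (0.484 to 0.588). Only 21 of 140 DHT and 50 of 188 Vehicle cells had a UMI, and the 10 richest held 550 of 566 and 1139 of 1566 UMIs. Of the 8 genes, 3 reached 20 CPM in this class, 0 were counted as higher and 1, Mmp12, as lower, against 10.3% higher and 3.99% lower of 6416 genes. Mmp14 was at 109 and 73.3 CPM (ratio 1.48) and Mmp9 at 21.9 and 29.7 CPM (ratio 0.738). The thinned share for Mmp14, 15.3% and 20.1%, ran against its level, so no order is read from it. Osteoclast-like cells had little Mmp12, 2.99 CPM with DHT and 4.43 CPM with Vehicle.

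**Figure D4:**
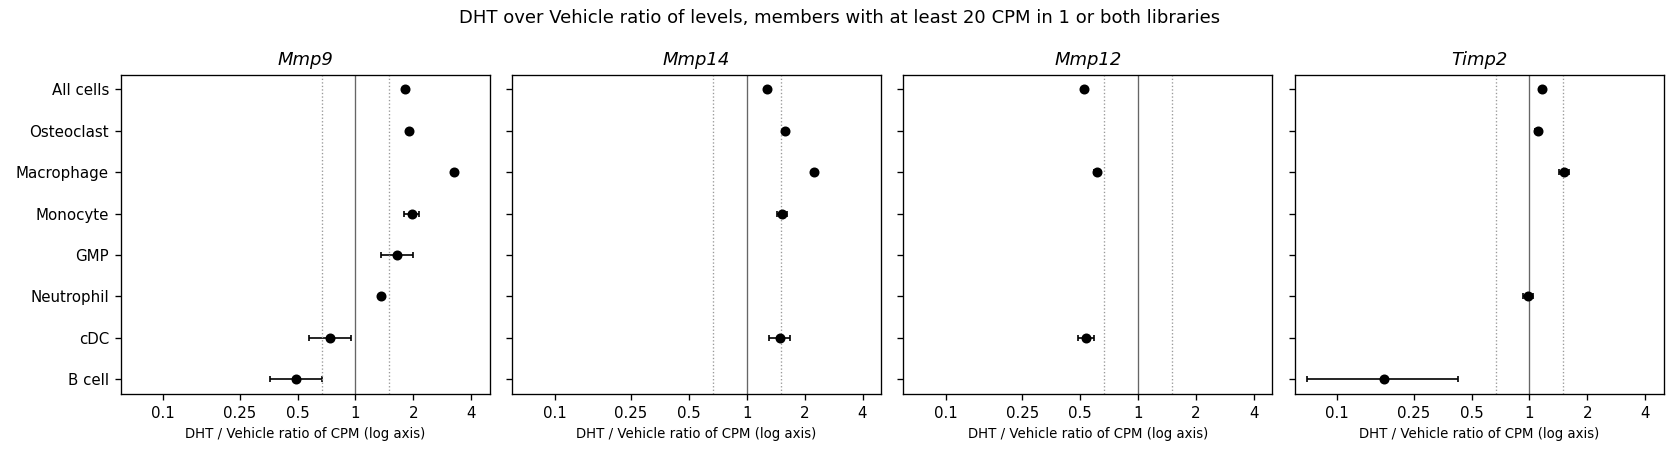
DHT over Vehicle ratio of CPM (log axis) for Mmp9, Mmp14, Mmp12 and Timp2 in all cells and in each class where the gene reached 20 CPM in 1 or both libraries, with exact 95% intervals. The solid line is 1 and dotted lines mark 1.5-fold in either direction; Mmp9 runs from 0.489 in B cell-like to 3.27 in macrophage-like cells.

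Mmp13 encodes collagenase-3, made in bone chiefly by osteoblasts and hypertrophic chondrocytes (chromosome 9, 7272514 to 7283331, plus strand, ENSMUSG00000050578). It was rare here, with 969 UMIs in the DHT library and 682 in the Vehicle library, or 3.27 and 1.58 CPM. Stromal-like cells held 37.4% and 55.6% of these UMIs, in 9 of 25 DHT and 2 of 12 Vehicle cells. In macrophage-like cells Mmp13 was at 10.8 CPM with DHT and 2.54 CPM with Vehicle, a ratio of 4.26 (3.59 to 5.07) below the 20 CPM minimum. The UMIs came from few cells: 90 of 1002 DHT and 57 of 1386 Vehicle cells had one, and the 10 richest held 53.4% and 67.4% of them. In finer clusters 3, 12 and 16 the ratio was 5.38 (4.22 to 6.93), 1.47 (0.958 to 2.22) and 1.99 (0.977 to 3.97). The intervals of finer clusters 12 and 16 include 1. As a mean of each cell's own CPM the class ratio was 1.75. Thinned shares were 3.81% and 0.871%, and B cell-like cells had none in 291 DHT and 51 Vehicle cells, which allows shares of up to 1.03% and 5.88%.

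Mmp19, a secreted metalloproteinase of myeloid and other cells, stayed under 20 CPM in each of the 7 classes. It was at 14.2 CPM with DHT and 12.1 CPM with Vehicle in osteoclast-like cells (ratio 1.17, 1.11 to 1.24) and at 16.3 and 16.5 CPM in macrophage-like cells (ratio 0.989, 0.899 to 1.09). Its direction over all cells, 11.0 CPM with DHT and 11.7 CPM with Vehicle, turned to a ratio of 1.12 when clusters were weighted to Vehicle shares. Stromal-like cells had 10.6 and 64.3 CPM, but 36 of the 50 Vehicle UMIs came from 1 cell.

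The inhibitors Timp1 and Timp3 belonged to a handful of cells. Timp1, a soluble inhibitor with a broad range, was at 33.2 CPM with DHT and 8.36 CPM with Vehicle over all cells, a ratio of 3.96 (3.81 to 4.12). Of these UMIs 93.3% in the DHT library and 76.3% in the Vehicle library lay in the 25 and 12 stromal-like cells, at 5710 and 3540 CPM. The richest single cell held 1881 of 9835 UMIs in the DHT library and 735 of 3604 in the Vehicle library. Without stromal-like cells the ratio was 1.12. In osteoclast-like cells Timp1 was at 2.28 and 1.84 CPM and in macrophage-like cells at 4.39 and 3.65 CPM, DHT before Vehicle in each pair.

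Timp3, which binds to extracellular matrix, was at 5.92 CPM with DHT and 1.49 CPM with Vehicle over all cells. Stromal-like cells held 88.7% and 76.9% of its UMIs, at 968 and 633 CPM. In monocyte-like cells 9 DHT and 7 Vehicle cells were positive, and 1 cell of each library held 68 of the 128 DHT UMIs and 92 of the 99 Vehicle UMIs. Dendritic cell-like cells had 9.64 and 4.01 CPM. Osteoclast-like cells had 14 and 10 UMIs in all. The richest single cell held 803 of 1756 UMIs in the DHT library and 252 of 640 in the Vehicle library.

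**Figure D5:**
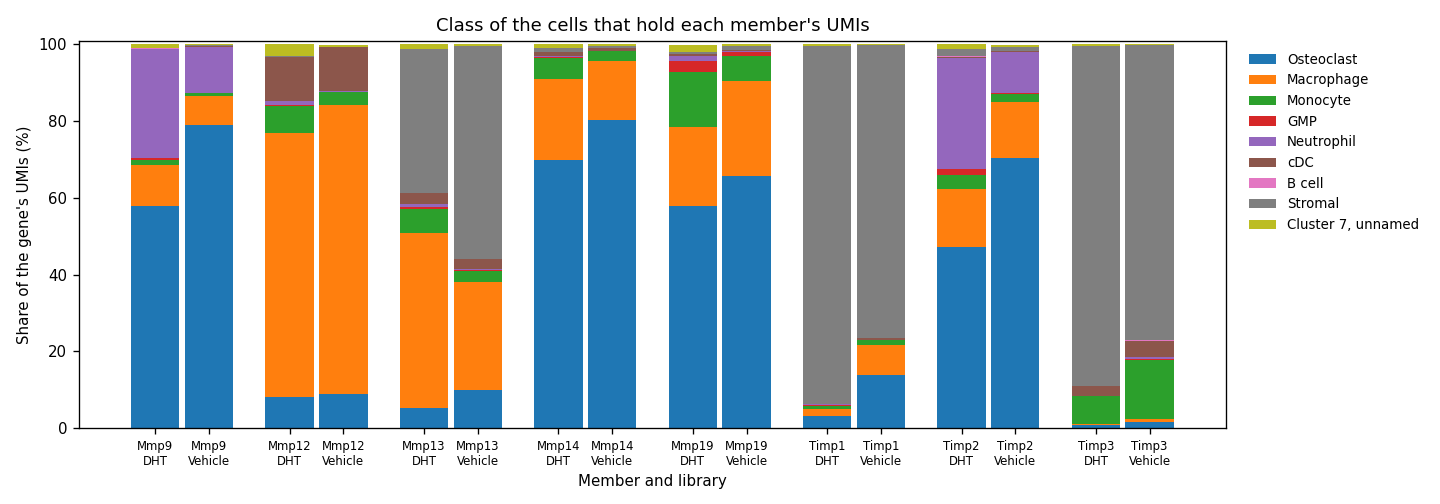
Share of each gene's UMIs (%) by the class of the cells that hold them, with the DHT bar left of the Vehicle bar for each gene. Timp1 and Timp3 lie mostly in stromal-like cells, Mmp12 in macrophage-like cells, and neutrophil-like cells hold 28.5% and 11.9% of Mmp9.

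Timp2, the partner of MMP14 in pro-MMP2 activation, was found in most classes (chromosome 11, 118301069 to 118355740, minus strand, ENSMUSG00000017466). Over all cells it was at 43.1 CPM with DHT and 37.1 CPM with Vehicle, a ratio of 1.16 (1.14 to 1.19). In osteoclast-like cells it was at 45.6 and 41.2 CPM (ratio 1.11), beside 1.89 for Mmp9 and 1.58 for Mmp14 in the same cells. Macrophage-like cells had 46.3 CPM with DHT and 30.5 CPM with Vehicle, a ratio of 1.52 (1.43 to 1.61) that sat on the 1.5-fold mark and ranked 240 of 6632. Its thinned share there was 19.8% and 12.8%. Neutrophil-like cells had 140 and 143 CPM, and 388 and 433 CPM in the mature cluster 10.

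Of the 8 genes, 2 reached 20 CPM in B cell-like cells and both, Mmp9 and Timp2, were at least 1.5-fold lower with DHT. A lower Mmp9 level was not particular to this class: the ratio was 0.738 in dendritic cell-like and 0.437 in stromal-like cells. Both ratios rest on few cells. The 10 richest dendritic cell-like cells held 64 of 100 DHT and 145 of 200 Vehicle UMIs, and 1 stromal-like Vehicle cell held 90 of 137. The background in the small B cell-like class was 10.4% higher and 7.48% lower of 6915 genes. Mmp9 was at 56.4 CPM with DHT and 115 CPM with Vehicle (ratio 0.489), from 129 and 65 UMIs in 72 of 341 and 12 of 117 cells, and Timp2 at 4.37 and 24.9 CPM, from 10 and 14 UMIs. For Mmp9, 1 cell held 47 of the DHT UMIs and 10 cells held 63 of the Vehicle UMIs, and 63 and 2 UMIs remained in DHT and Vehicle cells without the 10 richest of each. The neutrophil markers summed to 2550 CPM in DHT and 13000 CPM in Vehicle B cell-like cells, with all 9 detected in both. At the ratios of neutrophil-like cells, that RNA would bring 9.75 and 35.8 CPM of Mmp9 and 1.04 and 5.23 CPM of Timp2, part of what was measured. The thinned share for Mmp9, 15.5% and 11.8%, ran against its level.

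Genes whose level most resembled that of a member were ranked over 14 points, the 7 classes in each of 2 libraries, by Pearson r of log2(CPM + 10) among 8640 genes. The points of a library share its depth and its free RNA, so r is a description. Mmp9 was most like Numb (0.959), Timp2 (0.955) and Larp4b (0.947), and Timp2 most like Mmp9, Ikbkg (0.938) and Larp4b (0.926). Mmp14 was most like Slc39a1 (0.988), Spred1 (0.980) and Spire1 (0.980). Mmp12 was most like Procr (0.970), the endothelial protein C receptor, Tnfsf12 (0.944) and Rnf180 (0.941).

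Of 18 other metalloproteinase and TIMP genes in the files, 1 reached 20 CPM over all cells and was counted as higher, as 5.48% of all genes were. Mmp8, the collagenase of neutrophils, was at 95.7 CPM with DHT and 51.0 CPM with Vehicle (ratio 1.88), yet within neutrophil-like, macrophage-like and monocyte-like cells its ratios were 1.35, 1.12 and 0.867. In osteoclast-like cells it was at 10.5 and 11.8 CPM. Mmp25, a membrane-anchored protease of leukocytes, was at 168 and 51.8 CPM in DHT and Vehicle dendritic cell-like cells (ratio 3.24). Mmp2, the gelatinase that MMP14 activates, had 199 UMIs in the DHT library and 84 in the Vehicle library. Mmp28, epilysin, was at 0.967 and 0.933 CPM.

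Among 15 genes for the activation, docking and clearance of metalloproteinases, 9 reached 20 CPM over all cells, 1 was counted as higher with DHT (5.48% of all genes) and 0 as lower (0.178%), with a median log2 ratio of -0.03. Cd44, a docking receptor for MMP9, was at 501 and 532 CPM in DHT and Vehicle cells, and Cd63, a partner of TIMP1, at 344 and 393 CPM. The gene counted was Lcn2, whose product binds MMP9 and which is itself a neutrophil marker, at 1800 and 570 CPM. In osteoclast-like cells it was at 63.0 and 22.2 CPM and in macrophage-like cells at 85.1 and 21.0 CPM. The other neutrophil markers there would bring 51.7 and 21.0 CPM and 67.3 and 21.2 CPM of Lcn2. Reck, a membrane inhibitor of metalloproteinases, was at 21.0 and 13.7 CPM in neutrophil-like cells (ratio 1.53).

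Of 13 ADAM and ADAMTS proteases and their iRhom partners, 6 reached 20 CPM over all cells and 0 passed 1.5-fold, with a median log2 ratio of 0.02. Of all genes at that level, 5.48% were as much higher and 0.178% as much lower. Adam8 was at 321 CPM with DHT and 327 CPM with Vehicle, Adam17, the TNF-converting enzyme, at 125 and 128 CPM, and Adam10 at 124 and 123 CPM. Adam15 in neutrophil-like cells reached the mark, with 35.5 and 23.7 CPM in DHT and Vehicle cells, where 2.21% of all genes were as much higher. In osteoclast-like cells 5 of the 13 were measured and 0 passed 1.5-fold, with a median log2 ratio of 0.07. There 1.13% of all genes were as much higher and 0.0618% as much lower.

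Of 15 matrix substrates, 4 reached 20 CPM over all cells and 2 were counted as higher with DHT, where 5.48% of all genes were. Spp1, osteopontin, a matrix protein that MMPs cut, was at 1170 CPM with DHT and 749 CPM with Vehicle, and at 2580 and 1320 CPM in monocyte-like cells. Fn1, fibronectin, was at 84.6 and 39.9 CPM over all cells and 84.4 and 41.7 CPM in macrophage-like cells (ratio 2.02). Lamc1, a laminin chain, was at 28.6 and 37.2 CPM over all cells. Ecm1, a secreted matrix protein, was at 84.0 and 53.1 CPM in macrophage-like cells (ratio 1.58). In B cell-like cells Furin, at 21.9 and 12.4 CPM, was counted as higher, and Plaur (13.5 and 26.6 CPM), Lcn2 (104 and 314 CPM) and Mmp8 (5.24 and 21.3 CPM) as lower, on few UMIs.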

How the data were processed

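The authors deposited, for each of 2 libraries, a sparse matrix of UMI counts per gene and barcode, made with Cell Ranger 7.0.1 per the file headers. Per the submitters' processing notes, builds were GRCh38 and mm10, with no role stated for either. The use of intronic reads and of strand is not given in the sources used here. The 8 genes, the gene lists and the markers were chosen with earlier results of these data known. Named genes are the 8 members, list genes of at least 20 CPM and 1.5-fold, the 3 highest genes of each list, and the 3 genes most alike to each member.

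The cell filter asked for 300 genes or more, 800 UMIs or more and no more than 10% mitochondrial UMIs, applied to 10798 DHT and 10630 Vehicle barcodes with 319430510 and 453802415 UMIs. Scrublet in scanpy 1.11.5 (expected rate 0.08) then removed 203 (2.57%) and 156 (1.78%) doublets. The 2000 most variable genes, without interferon, Mmp and Timp genes, gave 30 principal components, 15 neighbours and Leiden clusters at resolution 0.6 (igraph 0.11.9). A cluster took the name of the cell type with most markers in its first 10 genes by fold, if 3 or more and 50% or more of that type's markers were over 2-fold up, and clusters with a median under 2000 UMIs stayed unnamed. This scoring was taken over from earlier work on these data. Classes of at least 100 cells in both libraries were compared, 7 in all.

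CPM were computed from counts summed per library or class. No test was made, since cells of 1 library do not replicate a group. Intervals are exact Poisson (levels), Clopper-Pearson (shares) and conditional binomial (ratios). A count of 0 allows 3 counts. The size rule and intervals were run on Poisson counts simulated from Vehicle sums with 2-fold changes put in. Those counts leave out the uneven spread of UMIs over cells, so the run checks the computation only. Thinning was 1 random draw to the 10th percentile of UMIs per cell. Computation used Python 3.11.15, numpy 2.4.6, scipy 1.17.1 and pandas 2.3.3. Alternatives were 2 other scalings (TMM from edgeR 4.0.16 under R 4.3.3, and median of ratios), averaging of CPM over cells, thinning, other cell and gene filters, other doublet rules, other clusterings and namings, free RNA subtraction and reweighted clusters.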

Additional observations from a re-analysis of the deposited data

Results flagged for a closer look

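Mmp9 and Timp2 were higher with DHT in some classes and lower in another, and the difference between classes was not tested. The Mmp9 ratio was 3.27 in macrophage-like, 1.96 in monocyte-like, 1.89 in osteoclast-like and 1.65 in progenitor-like cells, and 0.489 in B cell-like cells. In monocyte-like and progenitor-like cells the share of Mmp9-positive cells lay under that of B cell-like cells, and Mmp9 is not read as expression. B cell-like cells set that background, so it cannot judge their own Mmp9, which is not read as expression either. The Timp2 ratio was 1.52 in macrophage-like and 0.176 in B cell-like cells, the second from 10 DHT and 14 Vehicle UMIs.

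Cells outside the classes compared also held a signal above the Vehicle level. In the 25 DHT and 12 Vehicle stromal-like cells the ratio was 1.61 for Timp1 and 1.53 for Timp3, with 803 of the 1557 DHT UMIs of Timp3 in 1 cell. In the same cells it was 0.437 for Mmp9, 0.461 for Mmp13 and 0.164 for Mmp19. The richest Vehicle cell for each of these held 90 of 137, 326 of 379 and 36 of 50 UMIs. The richest DHT cell held 34 of 124, 247 of 362 and 3 of 17. In the unnamed cluster 7, with medians of 1527 and 1794 UMIs per DHT and Vehicle cell, Mmp9 was at 288 and 119 CPM, a ratio of 2.42.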

How the results depend on the processing

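No direction of a gene counted as higher or lower turned round under the alternatives run. Over all cells, the count of higher genes was 2 and became 1 with the mean of each cell's CPM, where Timp1 missed the CPM minimum at a ratio of 3.70. It became 1 without stromal-like cells, chosen after seeing the data, where the Timp1 ratio was 1.12. It became 3 at 5 CPM (Timp3 added) and 4 with no CPM minimum. With clusters weighted to Vehicle it stayed 2, with Mmp14 gained and Timp1 lost (ratio 1.53). In osteoclast-like cells the count of higher genes was 2 and became 4 with no CPM minimum, and 1 with marker bins weighted to Vehicle, also chosen after seeing the data, where Mmp14 gave 1.44. In macrophage-like cells the count of lower genes was 1 and became 0 with no doublets removed (Mmp12 at 0.710), 0 at resolution 1.0 and 0 with resolution 1.0 clusters weighted to Vehicle. The cause was not tested. The Mmp9 ratio ran from 1.72 to 1.91 over all cells, from 1.54 to 1.97 in osteoclast-like cells and from 2.75 to 3.69 in macrophage-like cells. The Mmp14 ratio ran from 1.22 to 1.66, from 1.44 to 1.65 and from 1.89 to 2.46 in the same order. Timp2 in macrophage-like cells ran from 1.42 to 1.70 and passed 1.5-fold in 11 of 16 alternatives. Thinned to 9764 UMIs per cell, Mmp9 had a UMI in 67.0% of DHT and 33.2% of Vehicle macrophage-like cells. Another scaling moved the median log2 ratio of all genes by at most 0.08 in size. No paired analysis was possible because each group has 1 library and the labels give no replicate numbers. Genes under 20 CPM and the B cell-like, dendritic cell-like and stromal-like classes are limited by few UMIs or cells.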
